A study of Homo sapiens with 12 samples.

Results

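The genes described here code for the plasma proteins of the complement and blood clotting systems that the liver secretes. They were taken by name as a set of 40 genes from the 26364 genes of a count table. RNA-seq was made from HepG2, a human hepatocellular carcinoma cell line, before insulin (0 min) and 5, 10, 30 and 240 min after it, in 2 replicates each, so that 10 libraries were compared. Per the labels the cells for RNA were grown in EMEM with serum and kept in EMEM for 16 h, followed by EMEM with BSA and 3 nM insulin. The treatment label reads 5 min on each RNA library, also at 0 min, so that the times were taken from the titles. The protocol texts of the RNA and ChIP libraries appear exchanged in the labels, so that it is uncertain which cells this treatment text describes. A ChIP-seq library of the insulin receptor (IR) from the same line, deposited with an input library, gave a list of peaks. The labels give 3 nM insulin for these libraries too. All libraries are of this 1 tumour line, cultured alone. No library of 5 to 240 min is without insulin. An effect of insulin therefore cannot be told apart from one of time in culture or of the change of medium.

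Complement is a cascade of serum proteases and binding proteins that marks targets for removal and can end in a pore, the membrane attack complex. It is started by antibody through C1, by sugars through mannose-binding lectin, or by the alternative pathway, and all routes meet at C3. Clotting is a second protease cascade that ends in thrombin, and it is held back by antithrombin, protein C and other inhibitors, while plasmin dissolves the clot. Hepatocytes make most of these proteins, and several clotting factors need a vitamin K dependent carboxylation before export.

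The libraries held 18347109 to 45005769 reads counted on genes, with the 0 min replicate 2 the deepest and the 240 min replicate 2 the smallest. All 6 hepatocyte markers examined were expressed, with albumin (ALB) at a mean of 19643 TPM, a unit of transcript abundance. None of these 6 was called at 240 min. Their log2 fold changes ranged from -0.29 for ALB (edgeR, adjusted p = 0.0503) to 0.07 for TF, with a median of -0.11. Of 4 leukocyte markers PTPRC, which defines leukocytes, had no count and CD14 stayed under 1 CPM in every library. CD68 and LYZ were expressed, with means of 54.7 and 9099 TPM. LYZ was lower at 240 min, with a log2 fold change of -0.34. Of 4 endothelial markers CDH5 and STAB2 stayed under 0.4 CPM, while PECAM1 had 1.75 to 2.997 CPM and VWF 0.418 to 1.16 CPM and neither was called at 240 min. Of 4 stellate cell or fibroblast markers COL3A1 was near 0 while ACTA2 and PDGFRB were lower at 240 min, with -0.30 and -0.53, and COL1A1, at 0.861 to 1.94 CPM, was not called, with 0.14. Of 3 bile duct markers KRT7 was near 0, and KRT19 and SOX9 were expressed, with SOX9 at 0.15 and higher at 240 min. The part of these markers in the results below was not tested.

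The levels of the 40 genes spanned from a listed 0 to above 1000 TPM, a unit scaled for transcript length that allows genes to be compared. The mean over the 10 libraries was at or above 1000 TPM for 3 genes, between 100 and 1000 for 15, between 10 and 100 for 10, between 1 and 10 for 10 and under 1 for 2. The highest was SERPINA1, the elastase inhibitor alpha-1 antitrypsin, with 7553 ± 494 TPM (SD, n = 10). It was followed by A2M, the broad protease trap alpha-2 macroglobulin, with 4116 ± 435 TPM, and by C3, the protein on which the complement routes converge, with 2956 ± 248 TPM. The ranges of these 3 genes over the libraries did not overlap: 6935 to 8213 TPM for SERPINA1, 3496 to 4790 for A2M and 2593 to 3255 for C3.

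**Figure D1:**
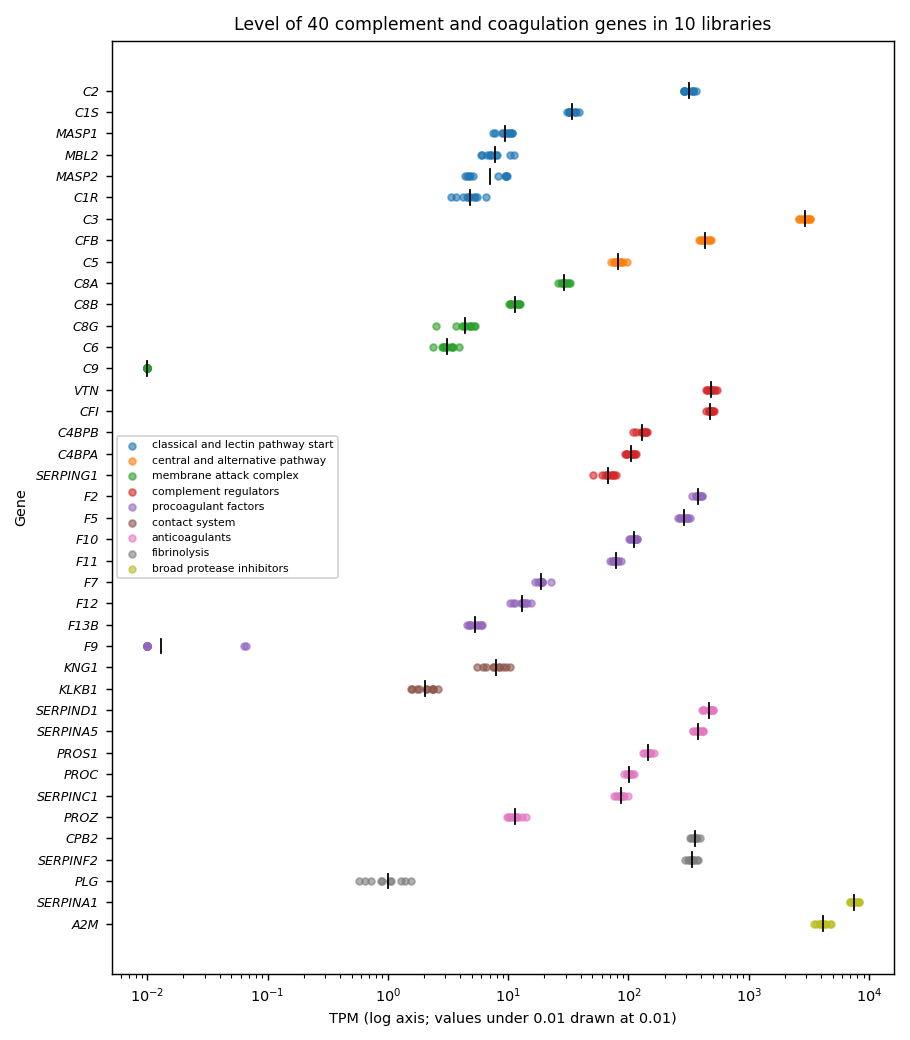
Level of each of the 40 genes in the 10 libraries, in TPM on a log axis, grouped by role; each point is a library and the black bar is the mean. SERPINA1, A2M and C3 lie above 1000 TPM, while C9 and F9 lie at the low end.

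Levels differed within each role. Among the complement regulators, vitronectin (VTN) had 487 ± 32.8 TPM and the C3b-cleaving protease factor I (CFI) 480 ± 21.4 TPM, whose ranges overlapped, while C1 inhibitor (SERPING1) had 67.9 ± 8.21 TPM. The C1 proteases were unequal, with 34.0 ± 2.65 TPM for C1S and 4.78 ± 0.909 TPM for C1R. The genes of the membrane attack complex were low, from 29.3 TPM for C8A to 3.12 TPM for C6, and C9, which forms the wall of the pore, was listed at 0 TPM in every library. Among the clotting factors prothrombin (F2) had 380 ± 21.1 TPM and the cofactor factor V (F5) 291 ± 22.0 TPM, whereas F9, the hemophilia B gene, had a highest value of 0.0662 TPM.

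C9 and F9 did not pass the filter on low counts, and 38 of the 40 genes were tested. A count of 0 allows up to 3 counts, which is 0.164 CPM, the unit of counts scaled to library size, in the smallest library. Plasminogen (PLG), the precursor of plasmin, had 1.004 ± 0.325 TPM and plasma prekallikrein (KLKB1) 2.05 ± 0.363 TPM, so that small changes were not detectable at this depth. The TPM of MASP2, the lectin pathway protease, fell in separate ranges, with 4.39 to 5.13 TPM in 5 libraries and 8.23 to 9.86 TPM in the other 5. Each range held libraries of 4 of the 5 times, and its CPM ranged only from 5.17 to 6.68.

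The genes together took 2.603% to 3.12% of the counts of a library, and 2.11% to 2.57% came from SERPINA1, A2M and C3. The share was 2.96% ± 0.235 (SD, n = 2) at 0 min and 2.74% ± 0.177 (n = 2) at 240 min, a difference of -0.218 percentage points (two-sided exact permutation test, p = 0.667). The smallest p that 2 against 2 libraries allow is 0.333. In bulk samples fewer cells with a transcript and less of it per cell cannot be told apart.

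After 240 min of insulin 11 of the 38 tested genes differed from 0 min at an adjusted p under 0.05 by edgeR's quasi-likelihood test, 1 higher and 10 lower. MBL2, the mannose-binding lectin, rose, and C4BPB, C4BPA, MASP1, A2M, SERPINF2, F2, C5, C2, CFB and SERPINA5 fell by 12.2% to 22.3%. The 10 lower genes are 26.3% of those tested, while 20.4% of the 13852 genes tested were called lower. The 1 higher gene is 2.63% of those tested, while 20.6% of all genes were called higher. The share called lower was near the background and the share called higher was below it, and neither difference was tested. The median log2 fold change was -0.09 for the 38 genes and -0.0026 for all genes, and 28 of the 38 values were negative. For the 6 hepatocyte markers, of which none was called, the median was -0.11. Both 240 min libraries lay below both 0 min libraries for 13 of the genes, or 34.2%, against 34.9% of all genes, and above them for 1, or 2.63%, against 34.8% of all genes.

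**Figure D2:**
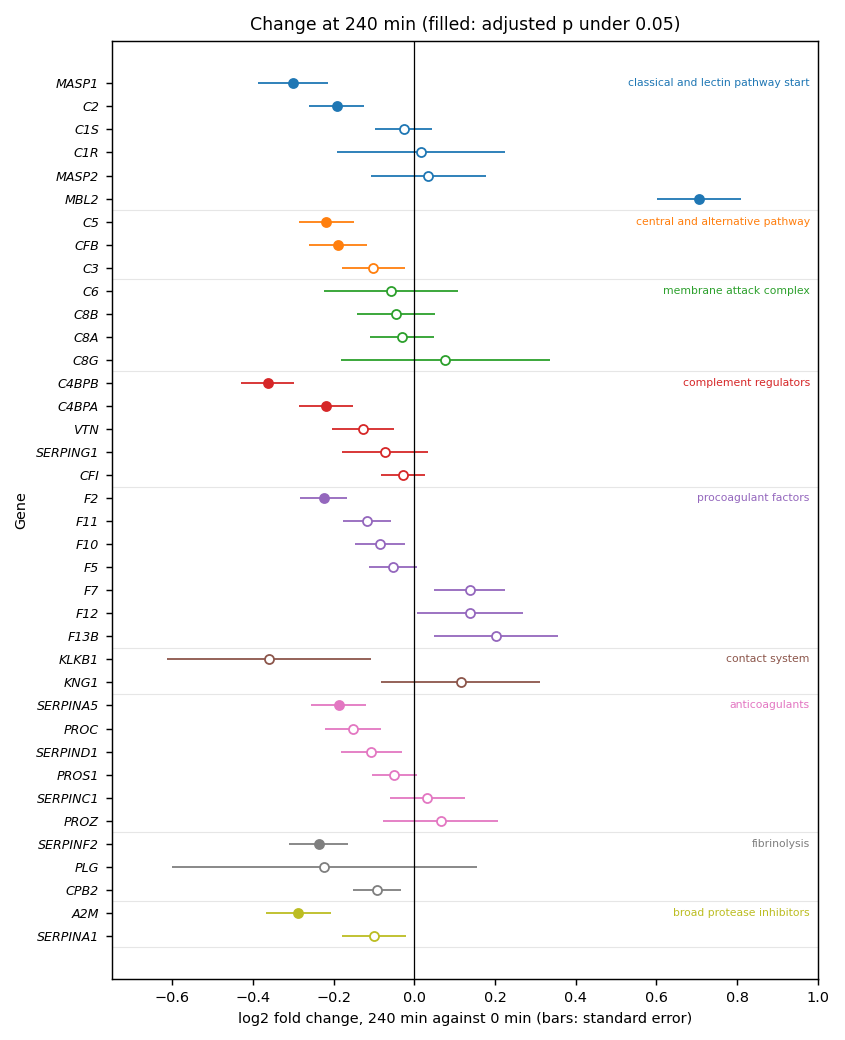
Log2 fold change of the 38 tested genes at 240 min against 0 min, grouped by role; points are estimates, bars are standard errors and filled points have an adjusted p under 0.05. MBL2 lies at 0.71, and the 10 filled points to the left of 0 lie between -0.36 and -0.19.

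The start of the classical and lectin pathways held the only rise. Of its 6 genes 1 rose and 2 fell, and C1R, C1S and MASP2 were not called, with values of 0.02, -0.03 and 0.03 on the log2 scale. MBL2 (chr10:54525140-54531460, minus strand) codes for the sugar-binding protein that starts the lectin pathway. It had 8.77 and 9.68 CPM at 0 min, 11.4 and 10.2 after 5 min, 8.83 and 10.4 after 10, 10.6 and 11.5 after 30, and 14.8 and 15.7 after 240 min. Both 240 min libraries stood above the other 8, of which none was above 11.5 CPM. The log2 fold change against 0 min was 0.71 ± 0.10 (SE), or 63.1% higher, with an adjusted p of 2.2e-05. MBL2 was low in level, with 7.77 ± 1.72 TPM over the libraries.

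MASP1 (chr3:186933873-187009810, minus strand) codes for a protease carried by mannose-binding lectin, and it went in the other direction. It had 18.2 and 16.4 CPM at 0 min, 15.8 and 16.0 after 5 min, 19.2 and 18.0 after 10, 15.2 and 16.0 after 30, and 13.99 and 13.88 after 240 min. The 240 min libraries were the lowest of the 10, and the 0 min libraries differed by more than the 240 min ones. On the log2 scale the change was -0.30 ± 0.09 (adjusted p = 0.0093). It lost its call without the 0 min replicate 1, with -0.24 and an adjusted p of 0.0757. C2 (chr6:31865562-31913451, plus strand), the protease part of the classical and lectin C3 convertase, had 325 and 355 CPM at 0 min, 330 and 338 after 5 min, 333 and 304 after 10, 358 and 313 after 30, and 314 and 281 after 240 min. The groups of 0 and 240 min did not overlap, but 1 library of 10 min and 1 of 30 min lay at or below the higher 240 min library. Its log2 fold change was -0.19 ± 0.07 (adjusted p = 0.028).

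MBL2 was the single gene of the set to rise, and its promoter is shown for that reason. The stretch is that before the start of the deposited gene, chr10:54531461-54531662 of GRCh37 on the minus strand, matched from the RefSeq promoter table of GRCh38.p14. Capitals mark CAAAG or its reverse complement, part of the site read by HNF4, a nuclear receptor of hepatocytes.
MBL2: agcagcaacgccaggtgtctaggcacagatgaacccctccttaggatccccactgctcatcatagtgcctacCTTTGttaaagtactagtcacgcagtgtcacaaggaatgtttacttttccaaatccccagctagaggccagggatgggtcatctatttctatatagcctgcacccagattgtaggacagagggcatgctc

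Of the central and alternative pathway 2 of 3 genes fell. C5 (chr9:123714614-123812554, minus strand), the source of the C5a signal and of the base of the pore, had 168 and 196 CPM at 0 min, 183 and 212 after 5 min, 172 and 175 after 10, 188 and 186 after 30, and 163 and 151 after 240 min. The lowest pair was that of 240 min, and its upper library was close to the lower 0 min library. At 240 min its log2 fold change was -0.22 ± 0.07 (adjusted p = 0.016). Factor B (CFB, chr6:31913721-31919861, plus strand), the protease part of the alternative C3 convertase, had 441 and 514 CPM at 0 min, 464 and 506 after 5 min, 449 and 415 after 10, 497 and 443 after 30, and 434 and 404 after 240 min. The 10 min values overlapped those of 240 min. Its log2 fold change was -0.19 ± 0.07 (adjusted p = 0.040).

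C3 fell short of a call at -0.10 ± 0.08 on the log2 scale (adjusted p = 0.31), and single libraries set its direction and call. Without the 0 min replicate 2 it was 0.055, and without the 0 min replicate 1 it was -0.25 (adjusted p = 0.015). It had 5423 and 6681 CPM at 0 min, 6182 and 6457 after 5 min, 6080 and 5460 after 10, 6723 and 6382 after 30, and 5796 and 5487 after 240 min. The 0 min libraries were farther apart than the means of the groups, and both 240 min values lay between them. Of the membrane attack complex none of the 4 tested genes C6, C8A, C8B and C8G was called by edgeR. None had an unadjusted p under 0.05 there, where 6751 of all 13852 genes did. Their log2 fold changes ranged from -0.06 to 0.08. C8G had only 0.910 to 1.90 CPM, so that small changes were not detectable.

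Among the 5 complement regulators C4BPB and C4BPA fell. They code for the beta and alpha chains of C4b-binding protein, which dissolves the classical C3 convertase and carries protein S. C4BPB (chr1:207262187-207273337, plus strand) had 58.4 and 61.6 CPM at 0 min, 55.8 and 55.7 after 5 min, 60.0 and 56.5 after 10, 62.0 and 53.5 after 30, and 46.4 and 47.2 after 240 min. Both 240 min libraries were below the other 8. The log2 fold change was -0.36 ± 0.07, a fall of 22.3%, with an adjusted p of 0.00019. C4BPA (chr1:207277607-207318317, plus strand) had 89.6 and 105 CPM at 0 min, 96.5 and 103 after 5 min, 96.8 and 89.9 after 10, 102 and 96.1 after 30, and 85.7 and 82.7 after 240 min. Its 240 min libraries were also the lowest, with a smaller distance to the 0 min replicate 1. On the log2 scale the change was -0.22 ± 0.07 (adjusted p = 0.013). VTN, SERPING1 and CFI were not called, with log2 values of -0.13, -0.07 and -0.03.

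C4BPB and C4BPA lie on 1 strand with 4270 bases between them, and the sequences before their starts are shown because both genes fell. They are chr1:207261955-207262186 for C4BPB and chr1:207277328-207277577 for C4BPA, both on the plus strand of GRCh37 and matched from the same RefSeq table. Capitals mark CAAAG and, for C4BPA, also GTTAAT, part of the site read by the hepatocyte factor HNF1.
C4BPB: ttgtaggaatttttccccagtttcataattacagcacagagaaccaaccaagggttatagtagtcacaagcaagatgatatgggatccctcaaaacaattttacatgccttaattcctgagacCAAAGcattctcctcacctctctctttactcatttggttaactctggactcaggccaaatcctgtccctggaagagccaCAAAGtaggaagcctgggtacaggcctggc
C4BPA: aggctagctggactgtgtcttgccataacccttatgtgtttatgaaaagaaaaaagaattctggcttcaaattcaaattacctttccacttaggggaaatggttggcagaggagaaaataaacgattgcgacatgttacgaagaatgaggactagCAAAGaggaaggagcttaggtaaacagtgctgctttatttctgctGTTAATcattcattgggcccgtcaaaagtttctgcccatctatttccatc

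The letters were also counted in all promoters. Among 35116 windows of 300 bases around RefSeq starts, from 250 bases before to 50 after, CAAAG was found on either strand in 47.5%, GTTAAT in 6.88% and TTGCNNAA, a C/EBP motif, in 10.5%. Of the 40 genes 33 had a window, and CAAAG was in 24 (72.7%), GTTAAT in 9 (27.3%) and TTGCNNAA in 6 (18.2%). GTTAAT was in the windows of C4BPA, C5, CFI, F13B, F2, KLKB1, MBL2, PLG and PROC, and in MBL2 it lay outside the stretch printed. Of the 9 genes called at 240 min that had a window, GTTAAT was in 4, CAAAG in 5 and TTGCNNAA in 0. Matches of different motifs can overlap, since CTTTG and GTTAAT can share a base, and a match describes the sequence and not binding.

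Of the clotting cascade 1 of 7 tested procoagulant factors fell. Prothrombin (F2, chr11:46740743-46761056, plus strand) had 325 and 328 CPM at 0 min, 311 and 311 after 5 min, 313 and 306 after 10, 330 and 288 after 30, and 292 and 267 after 240 min. The 0 min libraries lay close together, and 1 library of 30 min was below the upper 240 min library. At 240 min its log2 fold change was -0.22 ± 0.06 (adjusted p = 0.0045), and without the 240 min replicate 2 it was -0.16 with an adjusted p of 0.0657. The other 6, F5, F7, F10, F11, F12 and F13B, had values from -0.12 for F11 to 0.20 for F13B and were not called. The contact system genes KNG1 and KLKB1 were not called either, with 0.11 ± 0.20 and -0.36 ± 0.25.

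Of 6 anticoagulant genes SERPINA5, the protein C inhibitor (chr14:95047706-95059457, plus strand), fell. It had 350 and 396 CPM at 0 min, 363 and 389 after 5 min, 355 and 329 after 10, 395 and 348 after 30, and 341 and 314 after 240 min. The upper 240 min library was close to the lower 0 min one, and a 10 min library lay between the 240 min libraries. The log2 fold change was -0.19 ± 0.07 (adjusted p = 0.034). Antithrombin (SERPINC1), heparin cofactor II (SERPIND1), protein C (PROC), protein S (PROS1) and protein Z (PROZ) were not called, with values from -0.15 for PROC to 0.07 for PROZ. Of the 6 tested genes whose proteins depend on vitamin K, F2, F7, F10, PROC, PROS1 and PROZ, only F2 was called at 240 min.

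Among 3 genes of fibrinolysis SERPINF2 (chr17:1646130-1658559, plus strand), the plasmin inhibitor alpha-2 antiplasmin, fell. It had 309 and 342 CPM at 0 min, 318 and 321 after 5 min, 318 and 290 after 10, 352 and 296 after 30, and 292 and 261 after 240 min. The 0 and 240 min groups did not overlap, while 1 library of 10 min lay below the upper 240 min library. On the log2 scale the change was -0.24 ± 0.07 (adjusted p = 0.013). PLG and the fibrinolysis inhibitor CPB2 were not called, with -0.22 ± 0.38 and -0.09 ± 0.06.

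Of the broad protease inhibitors A2M (chr12:9220304-9268558, minus strand) fell. It had 7746 and 8673 CPM at 0 min, 7736 and 8848 after 5 min, 7183 and 6514 after 10, 8103 and 7056 after 30, and 7081 and 6374 after 240 min. Low values were seen at 240 min and also at 10 min and in 1 library of 30 min. At 240 min its log2 fold change was -0.29 ± 0.08 (adjusted p = 0.0076). SERPINA1 had 9909 and 10639 CPM at 0 min, 9444 and 10459 after 5 min, 9443 and 9080 after 10, 10090 and 8896 after 30, and 10475 and 8696 after 240 min. Of the 240 min libraries 1 lay within the 0 min range and 1 below it, and the log2 fold change was -0.10 ± 0.08 (adjusted p = 0.34). Without the 240 min replicate 2 it was 0.027, and without the 240 min replicate 1 it was -0.24 (adjusted p = 0.022).

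**Figure D3:**
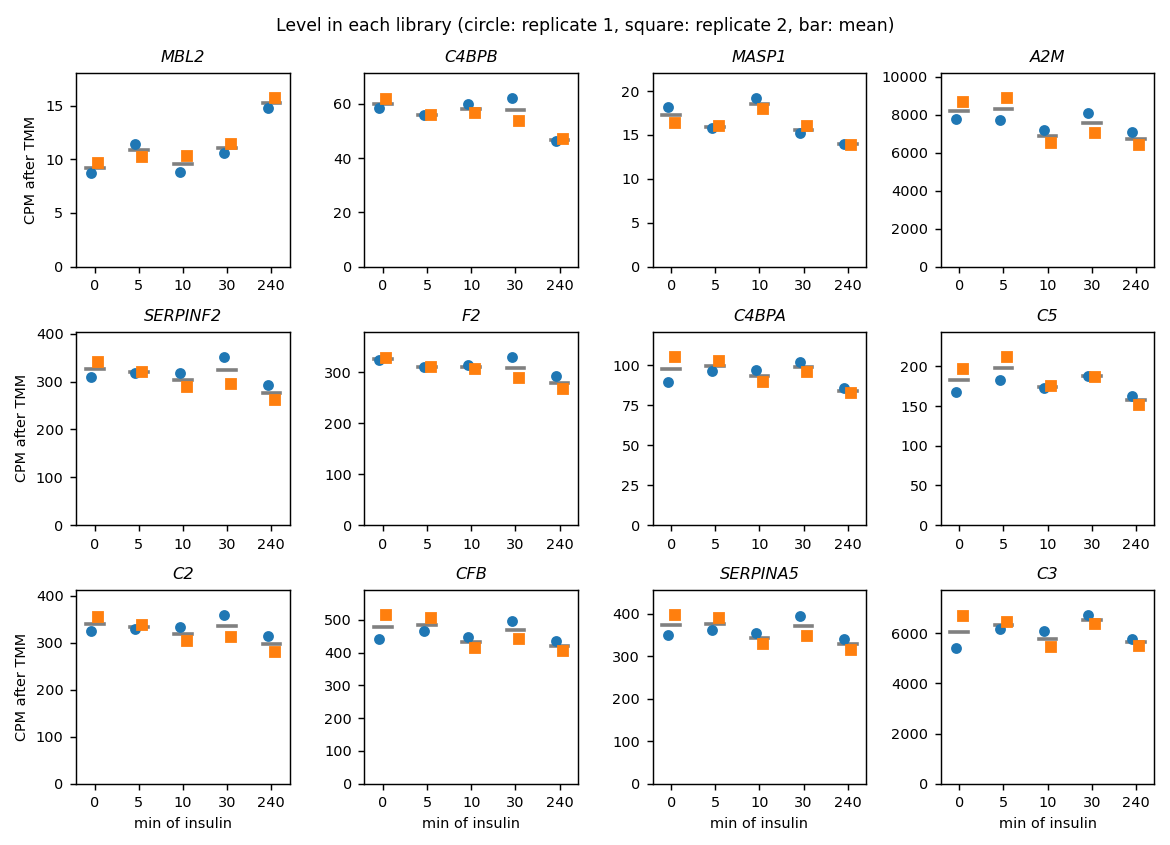
CPM of the 11 called genes and of C3 in each library by min of insulin, from 0 on each y axis; circles are replicate 1, squares replicate 2 and bars the means. MBL2 is highest at 240 min with 14.8 and 15.7 CPM, and C4BPB is lowest there with 46.4 and 47.2 CPM.

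The genes moved together between replicates of the same time. At 240 min 33 of the 38 tested genes were higher in replicate 1 than in replicate 2, with a median log2 difference of 0.13, whereas the median of all genes was 0.0043. At 0 min 30 of 38 were higher in replicate 2, with a median of -0.11 for replicate 1 minus replicate 2. At 10 and 30 min 30 of 38 were higher in replicate 1, and at 5 min 27 were higher in replicate 2. The medians of the set at 0 and 240 min were larger in size than its median change of -0.09 at 240 min, and the part of these differences in the calls was not tested. Such differences were also seen outside the set. At 240 min ALB had 18563 and 13892 CPM in replicates 1 and 2, and the fibrinogen gene FGA had 1425 and 1143. At 0 min FGA had 1221 and 1588 CPM, while ALB, with 20238 and 19528, went the other way. Without the 0 min replicate 2 the median log2 fold change at 240 min was -0.03 for the 38 genes and 0.00094 for all genes. Without the 240 min replicate 2 these were -0.04 and -0.0040. The median of the 38 genes was -0.15 without the 0 min replicate 1 and -0.18 without the 240 min replicate 1. With single libraries of 0 and 240 min left out, MBL2 ranged from 0.65 to 0.79 and C4BPB from -0.40 to -0.32.

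**Figure D4:**
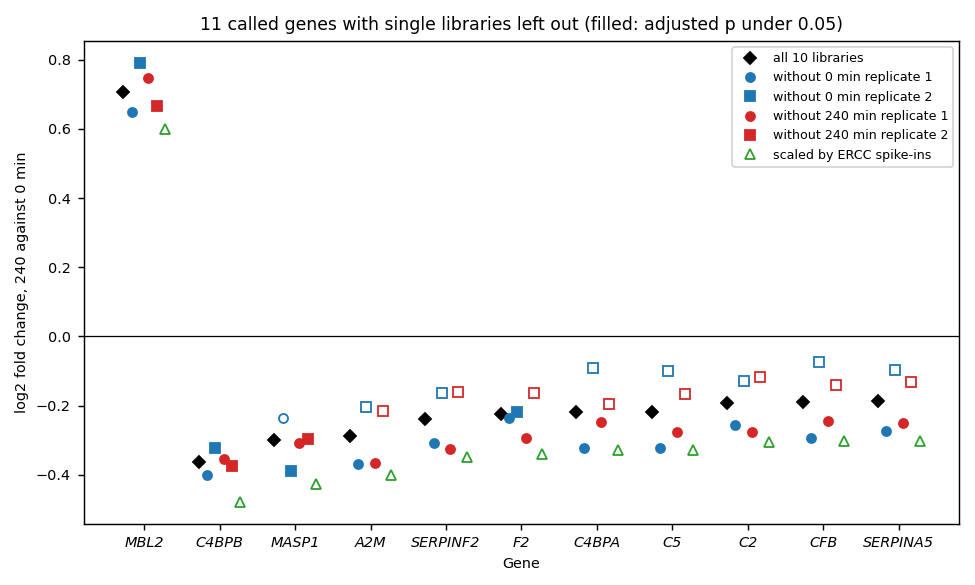
Log2 fold change at 240 min against 0 min of the 11 called genes with all libraries, with each library of 0 or 240 min left out and with scaling by ERCC spike-ins; filled points have an adjusted p under 0.05. C4BPB stays between -0.40 and -0.32 without single libraries, while C5, C4BPA, CFB and SERPINA5 come to -0.10 or nearer to 0 without the 0 min replicate 2.

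Scaling by the ERCC spike-in RNAs, which are added to the sample, left no gene of the set called at 240 min by edgeR. An unadjusted p under 0.05 was found there for 4 of the 38 genes and for 2858 of all 13808 genes. Of all 13808 genes tested with that scaling 1058 were called, 330 higher and 728 lower, against 5676 of 13852 in the main test. DESeq2 called 9 of the set, 1 higher and 8 lower, beside 2106 higher and 2303 lower of 20553 genes fitted. On log2(TPM + 1) limma called 4 of the set, 1 higher and 3 lower, beside 2783 higher and 1801 lower of 13852. With spike-in scaling the log2 values were 0.60 for MBL2 (adjusted p = 0.052) and, for C4BPB, -0.48 (adjusted p = 0.10). That scaling moved the median of all genes by -0.12 on the log2 scale, and the median of the 38 genes was then -0.20.

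Against 30 min the 240 min libraries differed in 11 genes, with MBL2 higher and 10 lower. This comparison shares the 240 min libraries with the one above. The 10 lower genes are 26.3% of those tested, against 18.4% of all genes, and the 1 higher gene is 2.63%, against 19.8% of all genes. The median was -0.15, and all genes had a median of -0.00015. MBL2 had 0.47 ± 0.11 (adjusted p = 0.0016) and C4BPB -0.31 ± 0.07 (adjusted p = 0.0011). C5 followed with -0.25, C4BPA with -0.24, SERPINF2 with -0.23, SERPINA5 with -0.18 and C2 with -0.17. C1S, F5, C3 and PROS1 were called lower against 30 min with -0.23, -0.22, -0.22 and -0.16, and had -0.03, -0.05, -0.10 and -0.05 against 0 min. At 30 min against 0 min C1S had 0.20 (adjusted p = 0.40) and F5 0.17 (adjusted p = 0.43). The number called changed when single libraries were left out, in the set and over all genes.

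At the early times none of the 38 genes passed the test in edgeR. All genes called were 0.0% of those tested at 5 min, 0.137% at 10 min and 0.332% at 30 min, so that few calls would be counted in a set of this size. At an unadjusted p under 0.05 there were 1 of the 38 genes at 5 min, 2 at 10 min and 3 at 30 min. Over all 13852 genes there were 1976, 710 and 1125. DESeq2 and limma called 0 of the set at each time. F5 had 0.15 ± 0.06 at 5 min (adjusted p = 0.29). A2M had -0.26 ± 0.08 (adjusted p = 0.58) and SERPING1 -0.28 ± 0.11 (adjusted p = 0.78) at 10 min. MBL2 had 0.24 ± 0.11 at 30 min (adjusted p = 0.57). Without the filter on low counts A2M and SERPING1 were called lower at 10 min, beside 74 calls in either direction among 20553 genes. The medians of the set were 0.02 at 5 min, -0.07 at 10 min and -0.0019 at 30 min.

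Genes of the set that neighbour each other in the genome did not share 1 pattern. C2 and CFB lie on the plus strand of chromosome 6 with 270 bases between them and had -0.19 each. C4BPB and C4BPA had -0.36 and -0.22. Of F7, F10 and PROZ, in a row on chromosome 13, none was called, with 0.14, -0.08 and 0.07. C1S and C1R, C8A and C8B, and KLKB1 and F11 were also not called, and of SERPINA1 and SERPINA5, with 190677 bases between them, only SERPINA5 was.

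The IR ChIP-seq had 1971 peaks. Of the 38 tested genes 1, C2, had a peak within 5 kb of the gene body, and 15.7% of all genes tested had one. The stronger of 2 peaks at C2 was chr6:31866192-31866533, with a score of 221 in the peak table (rank 479 of 1971, median 79). It lies in an intron of C2 by GENCODE, with its centre 800 bases downstream of the deposited gene start. The second, chr6:31865102-31865479, with a score of 81, has its centre upstream of the deposited C2 start, at -272 bases. It overlaps an exon and UTR of the neighbouring gene EHMT2. Within 20 kb 5 genes, A2M, C2, C3, CFB and PROC, had a peak, and by HOMER's nearest gene C2 and PROC did. The ChIP-seq is of 1 library, so that no error can be given.

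The centre of the stronger peak, chr6:31866213-31866512 of GRCh37 on the plus strand, is shown because it has the highest score of the peaks within 5 kb of a gene of the set. Capitals again mark CAAAG or its reverse complement.
C2: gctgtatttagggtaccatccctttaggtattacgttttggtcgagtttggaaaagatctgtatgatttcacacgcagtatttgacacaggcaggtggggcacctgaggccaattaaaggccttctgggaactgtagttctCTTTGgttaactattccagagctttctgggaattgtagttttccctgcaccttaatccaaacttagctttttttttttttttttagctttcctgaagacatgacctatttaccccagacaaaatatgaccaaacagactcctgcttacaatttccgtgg

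Of 54 other genes of these pathways 34 were tested and 15 had no count. They hold other complement genes, other genes of coagulation and fibrinolysis, and genes for factor maturation and export. At 240 min 3 were higher and 7 lower, where 20.6% of all genes were called higher and 20.4% lower, and at 5, 10 and 30 min edgeR called 0. Tissue factor (F3), which starts clotting, had 6.496 and 6.646 CPM at 0 min and 14.2 and 14.7 at 240 min, and all 6 libraries between these times lay from 6.35 to 7.08. Its log2 fold change was 1.13 ± 0.10 (adjusted p = 5.2e-08), the largest among the genes called here. Its inhibitor TFPI had 1147 and 1140 CPM at 0 min and 857 and 779 at 240 min, with -0.48 ± 0.05 (adjusted p = 7.4e-07).

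GGCX, the carboxylase on which vitamin K dependent factors rely, had 113 and 120 CPM at 0 min and 83.1 and 87.7 at 240 min. Its log2 fold change was -0.45 ± 0.05 (adjusted p = 1.0e-06). PCSK5, a proprotein convertase, had 2.55 and 3.39 CPM at 0 min and 3.80 and 6.05 at 240 min, with 0.65 ± 0.22 (adjusted p = 0.026). VKORC1L1 was higher, and among those lower were the complement regulators CD46 and CD55, the cargo receptor LMAN1 and the tyrosine sulfotransferase TPST1, from -0.39 for CD55 to -0.17 for LMAN1. C4A and C4B, 2 near-identical genes for complement C4, had 0 counts in the count table, so that their change was not tested on counts.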

How the data were processed

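RNA-seq of 10 HepG2 libraries and the peaks of 1 IR ChIP-seq library were used. The authors trimmed the reads (Trim Galore 0.6.4), aligned them to hg19 (STAR 2.6.1d), counted them per gene with featureCounts 1.6.4 and deposited raw counts. They marked duplicates, and removal is not given in the sources used here. The authors also deposited TPM from StringTie, and peaks with a score made with MACS2 2.2.7.1 and annotated by HOMER. The protocol texts of the RNA and ChIP libraries appear exchanged in the labels.

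Counts, which set the precision of each gene at 18347109 to 45005769 per library, were fitted with edgeR 4.0.16 (R 4.3.3; TMM, filterByExpr by time, quasi-likelihood test, 1 model of 10 libraries, no replicate block). P-values were Benjamini-Hochberg adjusted over all 13852 genes tested, a call is an adjusted p under 0.05, and SE is the log2 fold change over the square root of F and so includes the spread between replicates. CPM are after TMM. The 92 ERCC rows, 1.59% to 2.36% of counts, stayed out. Replicates of 1 time differed by more than counting error (chi-square per degree of freedom 2.86 to 6.46). The study's text says that the RNA-seq was done once, and calls the samples biologically independent. On simulated counts of 13735 genes for 240 min against 0 min, with 100 genes changed at each size, 84% were recovered at a log2 change of 0.5 and 99% at 1, and 6.63% of the calls were false. The genes of the set called lower at 240 min had changes under 0.5 in size, which were not simulated. Changed genes were drawn from those of higher counts, and no shift shared by genes within a replicate was simulated. These rates therefore do not carry over to the calls here. The floor of 3 counts covers counting error only.

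All 40 genes are named. Values per library are given for the genes called at 240 min, the 3 of highest TPM, and the 4 called genes of largest change among the other pathway genes. The genes and lists were chosen with earlier results of these data known. Alternatives were DESeq2 1.42.0, limma 3.58.1 on log2(TPM + 1), log2(TPM + 0.1) and genes of a mean TPM of at least 1, other filters, RLE and ERCC scaling, the replicate block, single libraries left out and, chosen after seeing the data, thinning to the smallest library.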

Additional observations from a re-analysis of the deposited data

Results flagged for a closer look

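The genes C4A and C4B, for the complement protein C4, had 0 counts in all 10 libraries of the count table. In the separate transcript abundance values C4B had a mean of 485 TPM and C4A a mean of 21.1 TPM, with 1.59 to 46.1 over the libraries. C4B was lowest in the 240 min libraries, with 261 and 256 TPM, against 525 and 656 TPM at 0 min, and was 303 TPM in the 30 min replicate 2 and 498 to 626 TPM in the other 5. This difference was not tested on counts. Both genes entered the limma alternative for genes of a mean TPM of at least 1, and its result for them is not given here. C4A and C4B stand out as a signal that the comparisons of counts could not use. The genes are near-identical, so that the split between them is uncertain, and whether reads that match both were left out of the counts was not tested.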

How the results depend on the processing

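The 11 calls at 240 min against 0 min became 9 with DESeq2 (CFB and SERPINF2 lost), 12 with the replicate block, 4 with limma on TPM at both pseudocounts and with genes of a mean TPM of at least 1, and 0 with ERCC scaling, and 4 to 15 without single libraries. All 11 genes stayed called with RLE, with either count filter, with the replicate block and after thinning. Calls among all genes also changed: ERCC scaling called 1058 of 13808 genes against 0 min and 916 against 30 min. In the main test they were 5676 and 5297 of 13852, and with limma on log2(TPM + 1) 4584 and 4572. Over all tested genes the replicate numbers showed no clear pairing (correlation of deviations between times -0.12 to 0.13). The genes of the set were mostly higher in replicate 1 at 10, 30 and 240 min and in replicate 2 at 0 and 5 min. Whether libraries of different times share a batch was not tested. The block changed no other count of calls by over 1.5 times. Against 30 min the 11 calls became 3 with limma in its 3 forms and 0 with ERCC scaling (1 at an unadjusted p under 0.05), and 4 to 16 without single libraries. At 10 min there were 2 calls without the filter on low counts and 0 to 1 without single libraries. The median of the 38 genes at 240 min was -0.20 with ERCC scaling and -0.18 to -0.03 without single libraries.

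Without the 0 min replicate 2 the log2 fold changes were -0.13 for C2, -0.10 for C5, -0.07 for CFB, -0.09 for C4BPA, -0.16 for SERPINF2, -0.10 for SERPINA5 and -0.21 for A2M, and none of these was called. C3 was then 0.055, and without the 0 min replicate 1 it was -0.25 and called. Without the 240 min replicate 2 the same 7 genes had -0.12, -0.17, -0.14, -0.20, -0.16, -0.13 and -0.21 and were not called, and SERPINA1 was 0.027. Without the 240 min replicate 1 SERPINA1 was -0.24 and called. The difference in the share of counts was -0.38 to -0.05 percentage points without single libraries. Peaks were at 1 gene within 1 kb and with scores above the median, 5 within 20 kb and 2 by nearest gene. The causes were not tested. With 2 libraries a time, the standard errors of PLG and KLKB1, 0.38 and 0.25 on the log2 scale, were above the size of most changes called here.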
